A study of Mus musculus with 12 samples.

Results

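Imprinted genes were followed in 2 mouse testis-derived cell lines in which the muscarinic acetylcholine receptor M5, encoded by Chrm5, was targeted with shRNA. The set held 40 genes named by symbol, and 33 of them were found among the 17995 genes of the expression table. The other 7 (H19, Kcnq1ot1, Airn, Meg3, Magel2, Peg13 and Zdbf2) were not analysed here. Peg3 was chosen by its measured value in C18-4 cells treated with shM5 against shNC, so its level in that comparison is given as a description. The fits across all genes included it, and nothing is read from its calls there. The 12 libraries formed 4 groups of 3: C18-4 cells with shNC, C18-4 cells with shM5, TM4 cells with shNC and TM4 cells with shM5. C18-4 is described in the study as a mouse spermatogonial stem cell line and TM4 as a mouse Sertoli cell line. The strain was given as IRC for every library. Cells of the shM5 groups received a mix of 3 shRNAs against Chrm5, those of the shNC groups received a control shRNA, and stably transfected cells were grown on. The time from transfection to RNA extraction was not given in the sources used here. Nothing stated that the 3 libraries of a group came from separate cultures, so p-values measure the spread between these libraries, which may be technical.

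Imprinted genes are expressed mainly from the copy inherited from 1 parent. A differentially methylated stretch of DNA, set in the germ line and kept by DNA methyltransferases and by KRAB zinc finger proteins such as ZFP57, controls a cluster of neighbouring genes. Marks are erased and reset during germ cell development, and many imprinted genes act on growth, on the placenta or on the brain. Peg3, a paternally expressed gene, encodes a large zinc finger protein that binds DNA and has been linked to growth, to maternal behaviour and to p53- and TNF-dependent signalling. The values here sum the reads of both parental copies, so no statement on imprinting itself can be drawn from them, and fewer cells of a type and less RNA per cell cannot be told apart.

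All levels are RPKM, reads scaled to gene length and library size, which allows levels of different genes to be compared per length. A gene was counted as expressed in a line when its mean over the 6 libraries of that line was at least 0.5 RPKM. Differences are given on the log2(RPKM + 0.1) scale, with adjusted p-values from limma over all genes tested, and the threshold was an adjusted p of 0.05.

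The libraries did not all behave as replicates. In TM4 cells, shNC replicate 3 differed from shNC replicates 1 and 2 by a root mean square of 0.640 and 0.642 log2 units over the genes tested, and from the 3 shM5 libraries by only 0.202 to 0.257, so TM4 results are given with and without it. In C18-4 cells, replicate 3 of each group was set apart from replicates 1 and 2. Chrm5 was listed at 0 in 10 libraries and at 0.01 in C18-4 shNC replicate 2 and TM4 shNC replicate 1, so its RNA could not be used to check the knockdown. Of 10 germ line markers with values, 2 averaged 0.5 RPKM or more in C18-4 shNC libraries, Id4 (2.69) and Etv5 (2.09), and the summed level of the 10 was 3.98 to 5.76 RPKM there. The defining germ cell genes Gfra1, Zbtb16 and Ddx4 lay at or under 0.34 RPKM in every C18-4 library. Of 11 Sertoli markers, 7 reached 0.5 RPKM in C18-4 and 6 in TM4 shNC libraries. Wt1 averaged 58.6 RPKM in C18-4 and 0.0967 in TM4 shNC libraries, whereas Sox9 averaged 0.00667 and 1.35. The lines are therefore called by their names here and not by a cell type.

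The lines differed in which imprinted genes they expressed, and the sequences upstream of 4 genes expressed in C18-4 but not in TM4 cells are shown first. They come from RefSeq, on the GRCm38.p6 build, and are written 5′ to 3′ on the strand of the gene. For Peg3 (chromosome 7, 6703892 to 6730462, minus strand) the whole gap of 96 bases to the divergent neighbour Usp29 is shown, and for the others up to 250 bases before the first annotated start. Igf2 and Grb10 have further annotated starts that are not shown.

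Peg3, chr7:6730463-6730558, minus strand: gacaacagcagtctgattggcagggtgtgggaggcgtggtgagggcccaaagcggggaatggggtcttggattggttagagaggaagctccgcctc
Igf2, chr7:142666817-142667066, minus strand: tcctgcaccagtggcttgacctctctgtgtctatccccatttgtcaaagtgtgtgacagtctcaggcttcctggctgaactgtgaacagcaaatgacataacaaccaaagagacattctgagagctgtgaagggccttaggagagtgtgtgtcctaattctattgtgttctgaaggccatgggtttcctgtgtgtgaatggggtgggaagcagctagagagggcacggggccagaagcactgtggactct
Plagl1, chr10:13090582-13090831, plus strand: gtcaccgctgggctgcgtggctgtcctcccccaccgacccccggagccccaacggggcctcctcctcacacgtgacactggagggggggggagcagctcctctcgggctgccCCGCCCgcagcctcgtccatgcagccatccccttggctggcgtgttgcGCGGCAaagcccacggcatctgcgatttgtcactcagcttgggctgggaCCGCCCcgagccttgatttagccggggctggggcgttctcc
Grb10, chr11:12037429-12037670, minus strand: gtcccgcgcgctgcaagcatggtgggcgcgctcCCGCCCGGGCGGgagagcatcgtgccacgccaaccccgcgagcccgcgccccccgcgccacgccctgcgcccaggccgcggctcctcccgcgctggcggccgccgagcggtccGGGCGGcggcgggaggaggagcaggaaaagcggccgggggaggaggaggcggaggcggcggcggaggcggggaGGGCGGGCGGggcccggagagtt

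Capitals mark matches, on either strand, to 3 motifs that were searched: TGCCGC, the core bound by ZFP57 when methylated, GGGCGG, the GC box bound by Sp1-type factors, and GCCATNTT, a YY1 motif. Overlapping matches run together in capitals. The Plagl1 stretch held 1 match to the ZFP57 core and 2 GC boxes, the Grb10 stretch 5 GC boxes, and the Peg3 and Igf2 stretches none of the 3 motifs. Among 32851 mouse promoter windows of 300 bases (250 before and 50 after the start), 11.6% held the ZFP57 core, 35.7% the GC box and 6.05% the YY1 motif. The whole 300-base window of Grb10 held 1 ZFP57 core as well. Those of Peg3, Igf2 and Plagl1 at these starts held the same matches as the stretches shown. The whole 300-base windows at these starts, which are of equal length, held 13 CpG dinucleotides at Peg3, 2 at Igf2, 26 at Plagl1 and 45 at Grb10. Windows on chromosome 18, where Impact lies, were left out of the match, and a promoter window was found for 31 of the 40 genes. For each gene the window with the most CpG was then taken, which for Igf2 lay at another start and held 24. The median over genes was 24 for the 5 genes with a window among those expressed only in C18-4 cells. It was 29 for 5 of the 9 expressed in both lines, and 17 for 16 of the 18 expressed in neither. Over 27025 genes it was 8.

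Of the 33 imprinted genes, 15 were expressed in C18-4 cells and 9 in TM4 cells. All 9 of the latter (Igf2r, Peg10, Sgce, Ube3a, Trappc9, Impact, Gnas, Inpp5f and Mcts2) were also expressed in C18-4 cells. The 6 expressed in C18-4 cells only were Peg3, Igf2, Cdkn1c, Grb10, Ddc and Plagl1, and 0 were expressed in TM4 cells only. These 6 made up 40% of the imprinted genes expressed in C18-4 cells, while 9.91% of all 11611 genes expressed in C18-4 cells fell under the limit in TM4 cells. Peg3, Cdkn1c and Plagl1, or 20% of the 15, were listed at 0 in all 6 TM4 libraries, against 2.1% of all genes expressed in C18-4 cells. Peg3 counts in both shares of imprinted genes and was chosen by its value in C18-4 cells, so these shares only describe this set. The remaining 18 genes stayed under the limit in both lines, with no single value above 0.59 RPKM.

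**Figure D1:**
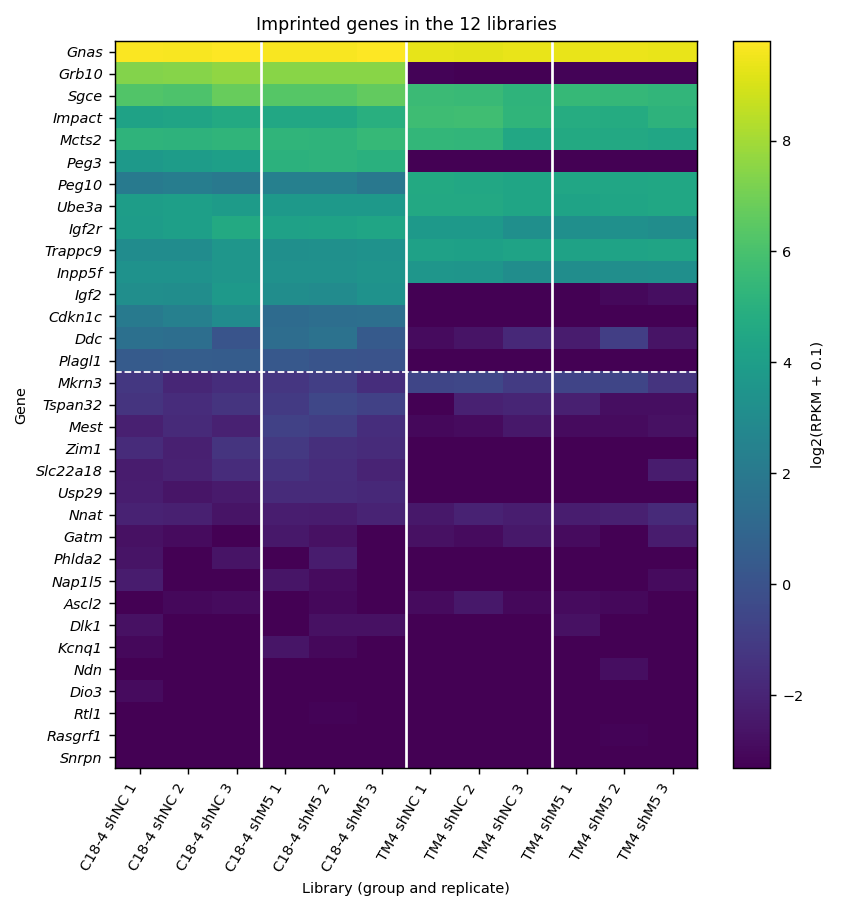
Level of each of the 33 imprinted genes with values (rows, sorted by the higher of the 2 line means) in each of the 12 libraries (columns), as log2(RPKM + 0.1) by colour. White lines part the 4 groups and the dashed line parts the 15 genes whose line mean reached 0.5 RPKM in C18-4 or TM4 cells from the 18 below it. Grb10, Peg3, Igf2, Cdkn1c, Ddc and Plagl1 are light in C18-4 and dark in TM4 columns.

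In the shNC libraries, 8 of the 15 genes tested differed between the lines by at least 1 log2 unit with an adjusted p under 0.05, as did 29% of the 11773 genes tested. Of these 6 were higher in C18-4 cells, where the share of all genes was 18.7%. They are the 6 expressed in C18-4 cells only, which passed the level filter through C18-4 cells, so their direction was fixed by the filter and nothing is read from their count. The other 2, Peg10 and Impact, belong to the 9 genes expressed in both lines and were higher in TM4 cells, as were 10.4% of all genes. Mcts2 and Inpp5f showed no difference past the threshold (0.13 ± 0.18 and 0.03 ± 0.12 on the log2 scale, ± SE, limma adjusted p = 0.525 and 0.850). The other 5 differed by less than 1 log2 unit, with Sgce, Igf2r and Gnas higher in C18-4 cells and Trappc9 and Ube3a higher in TM4 cells.

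**Figure D2:**
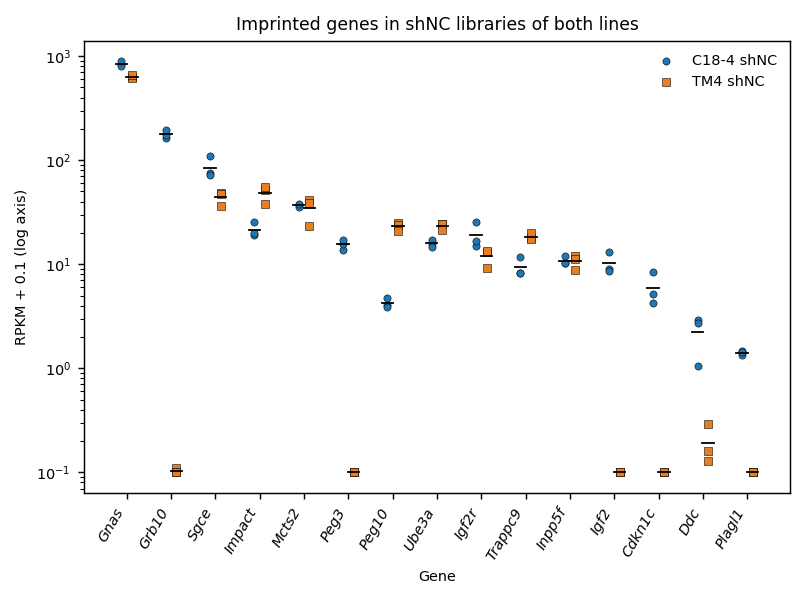
RPKM + 0.1 (log axis) of the 15 expressed imprinted genes in the 3 shNC libraries of C18-4 cells (blue circles) and of TM4 cells (orange squares), with a line at each mean. Points at the foot of the plot are libraries listed at or near 0, which for TM4 cells are those of Grb10, Peg3, Igf2, Cdkn1c and Plagl1.

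The Peg3 domain on proximal chromosome 7 holds Peg3, the paternally expressed deubiquitinase gene Usp29, which starts 96 bases away and runs in the other direction, and the maternally expressed zinc finger gene Zim1. Peg3 was 13.73, 15.39 and 17.09 RPKM in the C18-4 shNC libraries and 34.30, 36.22 and 31.71 in the shM5 libraries. The groups did not overlap, and the mean went from 15.4 ± 1.7 to 34.1 ± 2.3 (SD, n = 3), a ratio of 2.21 and a difference of 1.14 on the log2 scale. Peg3 was listed at 0 in all 6 TM4 libraries.

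Usp29 was near the lower limit of the data, at 0.11, 0.07 and 0.09 RPKM in C18-4 shNC and 0.21, 0.21 and 0.19 in shM5 libraries. These groups did not overlap either, and the ratio of the means was 2.26. Since it lay under the filter of 0.5 RPKM it was not tested, and the deposited values have 2 decimals, so a step of rounding is a sizeable share of each value. Zim1 was as low, at 0.21, 0.12 and 0.29 in shNC and 0.35, 0.24 and 0.21 in shM5 libraries, and its groups overlapped. Both were listed at 0 in every TM4 library. The reads were counted without regard to strand as far as the methods state, so reads from overlapping or antisense transcripts of the domain cannot be told apart.

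Of 73 genes annotated within 1000 kb of Peg3, 23 had values. Apart from Peg3 and Usp29 none of them was higher in all shM5 than in all shNC libraries of C18-4 cells. By same-numbered pairs, 3 further genes were higher with shM5 in every pair, Zfp418, Zfp772 and Clcn4, all with overlapping groups. Pairing by number was not established for replicates 1 and 2, and the share of all genes was not computed. Nothing is therefore read from counts by pair. Clcn4, 552 kb away, was 10.13, 10.05 and 7.71 RPKM in shNC and 12.05, 11.98 and 9.90 in shM5 libraries. Zfp772, 472 kb away, was 1.61, 1.75 and 2.31 in shNC and 2.21, 2.60 and 2.89 in shM5 libraries. Zfp444, 511 kb away, was lower in all of them, at 8.23, 8.10 and 8.12 RPKM in shNC and 7.11, 7.63 and 7.78 in shM5 libraries. Zfp787 was lower in every pair, with overlapping groups. The nearest flanking genes with a mean above 1 RPKM, Zfp28 at 307 kb on 1 side and Zfp954 at 384 kb on the other, averaged 1.31 and 3.49 in shNC and 1.30 and 3.68 in shM5 libraries, with overlapping groups. The neighbours were picked by distance alone.

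**Figure D3:**
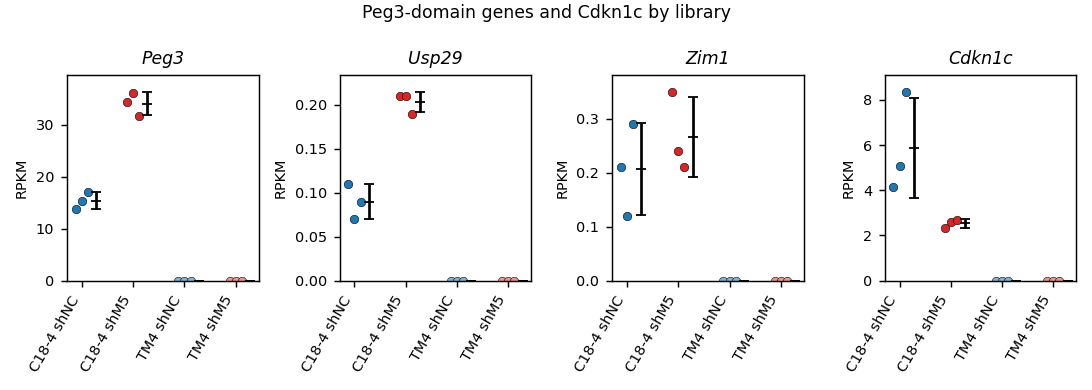
RPKM of Peg3, Usp29, Zim1 and Cdkn1c in each library (points) of the 4 groups, with the mean and SD of each group of 3 beside the points; axes start at 0 and differ in scale between panels. In C18-4 cells Peg3 and Usp29 are higher in all 3 shM5 than in all 3 shNC libraries, Zim1 overlaps, and Cdkn1c is lower in all 3 shM5 libraries. All 4 genes are listed at 0 in TM4 cells.

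Proteins that act with PEG3 in apoptosis and in TNF, NF-κB and Wnt signalling were looked at as a list of 7 (Traf2, Siah1a, Bax, Trp53, Ctnnb1, Nfkb1 and Rela). All 7 were expressed and 0 were past the threshold in C18-4 cells, with a median difference of -0.0915 beside -0.0024 over all genes. The proapoptotic gene Bax was 108, 107 and 126 RPKM in C18-4 shNC and 100.3, 99.3 and 117 in shM5 libraries, and Trp53, which encodes p53, was 173, 169 and 132 in shNC and 168, 170 and 150 in shM5 libraries. Both overlapped between groups.

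In C18-4 cells, 0 of the other 14 imprinted genes fitted were past the limma threshold, beside 0.586% of all genes. An unadjusted limma p under 0.05 was found for 2 of them, Cdkn1c and Ube3a, and for 1425 of all 11611 genes. Same-numbered C18-4 libraries deviated together (correlations across genes of 0.439, 0.409 and 0.631). Replicates 1 and 2 did so across numbers as well (0.341 and 0.345), so pairing by number was not established for them. With the number as a block 2 of the other 14 were called, Cdkn1c and Impact, beside 11.9% of all genes. The groups did not overlap for 3 of the other 14, Cdkn1c, Plagl1 and Ube3a, as for 18.9% of all genes. All 3 were lower in the shM5 libraries, as were 1109 of the 2189 genes without overlap, or 9.55% of all genes tested.

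Cdkn1c encodes p57, a cyclin-dependent kinase inhibitor that restrains growth, and is expressed from the maternal copy in the Kcnq1 domain of distal chromosome 7. It was 4.15, 5.07 and 8.35 RPKM in C18-4 shNC libraries and 2.31, 2.60 and 2.68 in shM5 libraries, so every shM5 library was below every shNC library. The ratio of the means was 0.432 and the log2 difference -1.12 ± 0.25 (SE, limma adjusted p = 0.128), with an adjusted p of 0.00568 under the replicate block. Without shNC replicate 3, its highest library, the difference was -0.84 (limma adjusted p = 0.049), in a fit that called 237 genes. Without shNC replicate 1 or 2 it was -1.33 and -1.19 and missed the threshold (limma adjusted p = 0.211 and 0.375). Those 2 fits called 0 genes. Without a level filter it was -1.12 (limma adjusted p = 0.185). Without the third replicate of both groups it was -0.88 (limma adjusted p = 0.00142). That last setting was chosen after seeing the data and called 3029 genes, against 68 in the main fit. The same limit holds wherever it is given below for C18-4 cells. The gene was listed at 0 in all TM4 libraries.

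Igf2, the paternally expressed growth factor, was 8.97, 8.56 and 13.05 RPKM in C18-4 shNC and 8.46, 7.90 and 10.14 in shM5 libraries, which overlapped (-0.19 ± 0.18 on the log2 scale, limma adjusted p = 0.777). In TM4 cells Igf2 was listed at 0 in all shNC libraries and at 0, 0.02 and 0.04 in shM5 libraries. Tspan32, a tetraspanin gene, was 0.29, 0.22 and 0.29 RPKM in C18-4 shNC and 0.37, 0.59 and 0.49 in shM5 libraries, without overlap (ratio of the means 1.81), and was under the filter and not tested. Slc22a18 (0.10 to 0.28), Phlda2 (at most 0.1), Kcnq1 (at most 0.07) and Ascl2 (at most 0.03 RPKM) stayed under the limit in C18-4 cells. Igf2r encodes the receptor that takes up IGF2 for degradation and is maternally expressed. Its level was 14.91, 16.68 and 25.40 RPKM in C18-4 shNC and 17.83, 19.09 and 21.03 in shM5 libraries, with a difference of 0.06 ± 0.19 (limma adjusted p = 0.956), or 0.225 without the third replicates (limma adjusted p = 0.0394). In C18-4 cells both the ligand and its receptor were thus expressed, and in TM4 cells the receptor but not the ligand.

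Grb10, an adaptor that dampens insulin and IGF receptor signalling, was the second most abundant imprinted gene in C18-4 cells, at 163.54, 172.78 and 194.01 RPKM in shNC and 174.66, 174.42 and 178.60 in shM5 libraries. The difference was -0.004 ± 0.078 on the log2 scale (limma adjusted p = 0.996). In TM4 cells it did not exceed 0.01 RPKM in any library. Its neighbour Ddc, which encodes aromatic L-amino acid decarboxylase, was 2.82, 2.60 and 0.95 RPKM in shNC and 2.49, 2.94 and 1.21 in shM5 libraries of C18-4 cells. Replicate 3 was the lowest in both groups, and the groups overlapped. In TM4 cells Ddc ranged from 0.03 to 0.44, and the lines differed by 3.47 ± 0.54 on the log2 scale in shNC libraries (limma adjusted p = 0.000156).

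Plagl1 encodes the zinc finger protein ZAC1, an inducer of cell cycle arrest. It was 1.24, 1.37 and 1.33 RPKM in C18-4 shNC and 1.12, 0.97 and 0.94 in shM5 libraries. The groups did not overlap, but the difference of -0.35 ± 0.17 missed the threshold (limma adjusted p = 0.482, or 0.204 with the replicate block). TM4 libraries were all listed at 0.

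Peg10 and Sgce start close to each other on proximal chromosome 6 and are both paternally expressed. Peg10, a gene of retrotransposon origin required for the placenta, was 24.67, 23.61 and 20.83 RPKM in TM4 shNC libraries and 3.95, 4.62 and 3.82 in C18-4 shNC libraries, so the lines did not overlap. The TM4 level was 5.58 times higher (-2.45 ± 0.14 on the log2 scale for C18-4 minus TM4, limma adjusted p = 2e-08). Sgce, which encodes ε-sarcoglycan of a membrane complex, went the other way, at 74.71, 71.27 and 108.41 in C18-4 and 48.39, 47.34 and 36.41 in TM4 shNC libraries (0.93 ± 0.16, limma adjusted p = 0.000342). In C18-4 cells with shM5 Peg10 was 5.11, 5.20 and 3.67 and Sgce 81.48, 82.18 and 98.80, and both overlapped the shNC libraries. Without the third replicates Sgce was higher with shM5 by 0.165 (limma adjusted p = 0.018).

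Impact encodes an inhibitor of GCN2, a kinase that senses amino acid shortage and leads to ATF4, and is paternally expressed. In TM4 shNC libraries it was 52.04, 55.27 and 38.23 RPKM and in C18-4 shNC libraries 18.82, 19.98 and 25.31, a difference of -1.17 ± 0.18 (C18-4 minus TM4, limma adjusted p = 0.000114). Between the shM5 libraries of the lines the difference was -0.227 (limma adjusted p = 0.285). In C18-4 cells Impact was 23.29, 23.50 and 30.79 in shM5 libraries, above the same-numbered shNC library in each of the 3 pairs. The difference was 0.27 ± 0.15 (limma adjusted p = 0.555), with an adjusted p of 0.0197 under the replicate block and 0.00647 without the third replicates.

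Of the remaining genes expressed in both lines, Gnas, which encodes the stimulatory G protein α subunit and several imprinted transcripts that a gene-level value does not part, was the most abundant. Its level was 836.90, 810.53 and 891.23 RPKM in C18-4 shNC and 821.12, 810.36 and 865.08 in shM5 libraries. Ube3a, the ubiquitin ligase gene affected in Angelman syndrome, was 15.70, 17.08 and 14.64 in C18-4 shNC and 13.72, 13.35 and 13.05 in shM5 libraries, lower in all 3 (-0.24 ± 0.09, limma adjusted p = 0.338, or 0.0571 with the replicate block and 0.013 without the third replicates). Trappc9, which encodes a subunit of a vesicle transport complex, was 8.19, 8.21 and 11.64 in shNC and 9.22, 9.49 and 10.18 in shM5 libraries of C18-4 cells. TM4 shNC libraries held more of it, at 17.82, 17.23 and 19.68, and the line difference was -0.98 ± 0.13 (limma adjusted p = 4.15e-05). Inpp5f, an inositol phosphatase gene, was 10.19, 10.12 and 11.89 in shNC and 9.70, 9.87 and 10.84 in shM5 libraries of C18-4 cells. Mcts2, a retrogene of Mcts1 that encodes a translation factor, was 36.76, 35.36 and 38.15 in shNC and 38.24, 37.22 and 43.85 in shM5 libraries. None of Gnas, Trappc9, Inpp5f and Mcts2 parted the groups in C18-4 cells.

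**Figure D4:**
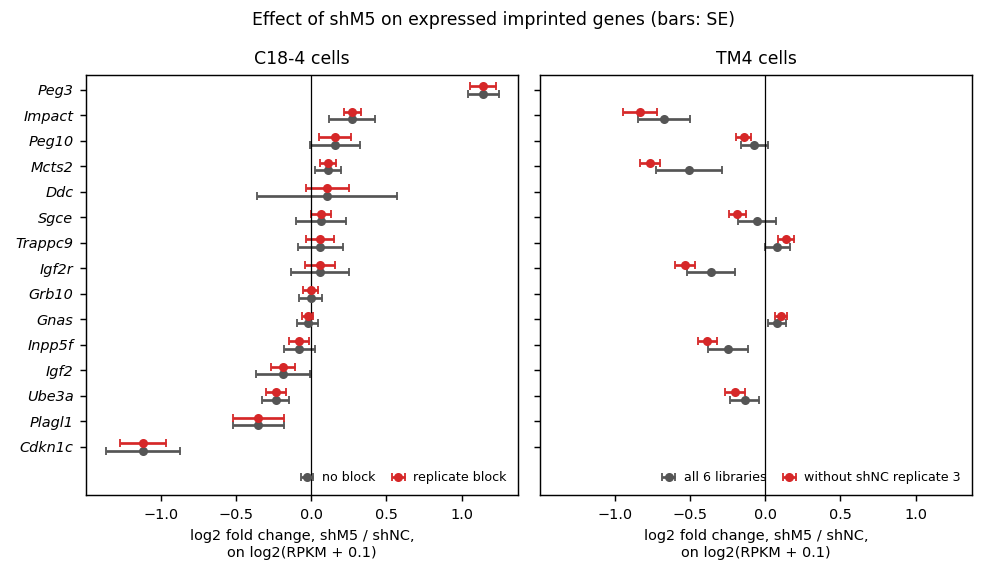
Difference between shM5 and shNC libraries (points, log2 units on log2(RPKM + 0.1), bars are SE) for the 15 imprinted genes expressed in C18-4 cells (left, without and with the replicate number as a block) and the 9 of them expressed in TM4 cells (right, with all 6 libraries and without shNC replicate 3). Peg3, chosen for its value here, and Cdkn1c stand farthest from 0 in C18-4 cells; Impact, Mcts2 and Igf2r do so in TM4 cells.

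In TM4 cells 0 of the 9 imprinted genes tested were past the threshold, as were 0% of all 11016 genes, of which 2866 had an unadjusted limma p under 0.05 (1 of them imprinted, Impact). Without shNC replicate 3, 7 of 10 were called, beside 67.4% of all 11026 genes. All 7 were lower with shM5, as were 3407 of the 7433 genes called, or 30.9% of all genes tested. The median difference without that library was -0.25 over the 10 genes and 0.042 over all genes. The group also gained Mkrn3, which passed the level filter in that fit and was not called (limma adjusted p = 0.415). With all 6 libraries the groups did not overlap for 26.8% of all genes and for 1 of the 9, Impact, which was lower with shM5 in all libraries, as were 11.1% of all genes.

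Impact was 52.04, 55.27 and 38.23 RPKM in TM4 shNC and 28.05, 27.03 and 35.67 in shM5 libraries. Replicate 3 of shNC lay closest to the shM5 group but still above it. The difference was -0.67 ± 0.17 with all libraries (limma adjusted p = 0.192) and -0.84 ± 0.11 without that replicate (limma adjusted p = 0.000363).

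Mcts2 was 41.27, 39.02 and 23.34 RPKM in TM4 shNC and 24.86, 24.31 and 21.60 in shM5 libraries, so that shNC replicate 3 fell inside the shM5 range. Its difference of -0.51 ± 0.22 (limma adjusted p = 0.192) became -0.77 ± 0.07 without that replicate (limma adjusted p = 4.67e-05). Mcts2 lies within H13 and is a near copy of Mcts1, and how reads were divided among them is not stated. H13 was 50.8, 51.9 and 54.9 in shNC and 54.2, 51.1 and 55.9 in shM5 libraries, and Mcts1 was 27.4, 27.3 and 21.7 in shNC and 24.0, 21.7 and 20.2 in shM5 libraries.

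Igf2r was 13.08, 13.40 and 9.19 in shNC and 9.09, 9.60 and 8.64 in shM5 libraries of TM4 cells, and Inpp5f 11.87, 11.24 and 8.66 in shNC and 8.57, 8.78 and 9.12 in shM5 libraries. In both genes shNC replicate 3 sat among the shM5 libraries. Without it the differences were -0.54 ± 0.07 (limma adjusted p = 0.000257) for Igf2r and -0.39 ± 0.06 (limma adjusted p = 0.00114) for Inpp5f, against -0.36 ± 0.16 (limma adjusted p = 0.193) and -0.25 ± 0.14 (limma adjusted p = 0.232) with it. Ube3a, Sgce and Peg10 moved less, by -0.201, -0.186 and -0.145 without that replicate (limma adjusted p = 0.0262, 0.0184 and 0.0385), and by -0.137, -0.055 and -0.074 with it, when none was past the threshold. Ube3a was 24.03, 24.15 and 21.11 in shNC and 19.69, 20.71 and 22.55 in shM5 libraries. Sgce was 43.69, 43.18 and 39.42 and Peg10 21.33, 21.57 and 22.59 in shM5 libraries, and both overlapped the shNC values given above.

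Gnas (628.79, 614.81 and 658.40 in shNC, 663.07, 692.19 and 651.85 in shM5 libraries) and Trappc9 (18.63, 19.38 and 19.82 in shM5 libraries) were the 2 expressed imprinted genes with a difference above 0 in TM4 cells, 0.078 and 0.081 with all libraries. Neither was past the threshold with or without shNC replicate 3 (limma adjusted p = 0.052 and 0.0525 without it).

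Atf4 and targets of ATF4, markers of amino acid and stress signalling, were taken as a list of 8 genes. As a sum they moved with the same libraries as Impact and Mcts2 in TM4 cells. Ddit4 departed from this, with shNC replicate 3 (17.09 RPKM) below the shM5 libraries (28.62, 29.14 and 20.88). The summed level of the 8 genes was 1482 and 1467 RPKM in TM4 shNC replicates 1 and 2, 588 in shNC replicate 3, and 532 to 561 in the shM5 libraries, and all 8 had a negative difference. In C18-4 cells replicate 3 was high in both groups, at 1129 and 1094, against 681 to 703 in the other 4 libraries. The summed level of 6 mesenchymal markers was 1062 to 1773 in TM4 shNC and 1793 to 1891 RPKM in shM5 libraries. The part of these in the results was not tested.

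**Figure D5:**
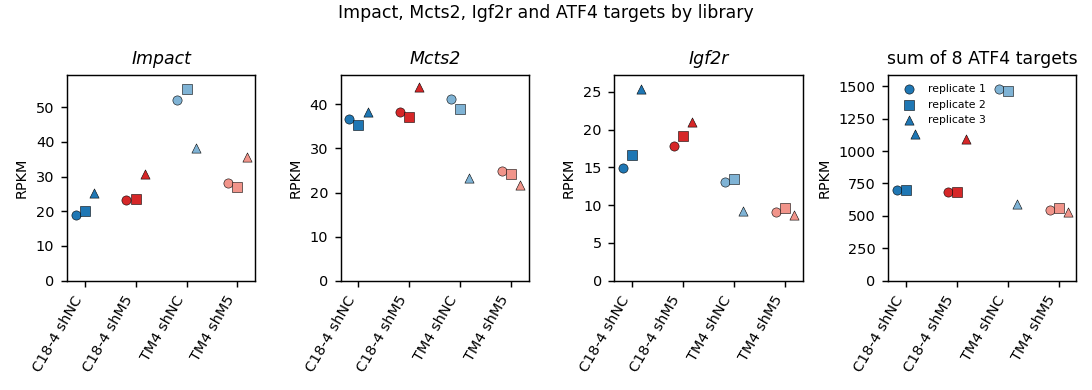
RPKM of Impact, Mcts2 and Igf2r and the summed RPKM of 8 genes, titled ATF4 targets and including Atf4 itself, in each library, by group. A marker shape is used for each replicate number, and axes start at 0. In TM4 cells shNC replicate 3 (triangle) lies at or near the shM5 libraries in all 4 panels, and in C18-4 cells the third replicates are the highest of their group.

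The difference of the shM5 effect between the lines was tested in a fit of all 12 libraries. For Peg3, listed at 0 in TM4 cells, no TM4 response could be measured, and the interaction only repeats the C18-4 value for which it was chosen. Of the other 14, 0 passed the limma threshold, beside 0.102% of all genes. An unadjusted limma p under 0.05 was found for 3 (Impact, Cdkn1c and Mcts2), and for 2463 of all 11773 genes. The nearest were Impact (0.95 ± 0.25, limma adjusted p = 0.147) and Cdkn1c (-1.12 ± 0.31, limma adjusted p = 0.166). Without TM4 shNC replicate 3, 3 of the other 14 were called, beside 38% of all genes. Impact differed by 1.11 ± 0.22 (limma adjusted p = 0.00317), Mcts2 by 0.88 ± 0.12 (limma adjusted p = 0.000344) and Cdkn1c by -1.12 ± 0.33 (limma adjusted p = 0.0226), the last again against a gene listed at 0 in TM4 cells.

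Among the 18 imprinted genes under the limit were the 3 genes of the Dlk1-Dio3 domain that had values. Dlk1, Rtl1 and Dio3 did not exceed 0.05 RPKM in any library. In the Snrpn-Ube3a domain Ndn and Snrpn were listed at 0 in all C18-4 libraries, while Ube3a was expressed. No parental pattern can be read from this, since the values sum both copies. Snrpn shares its transcript with Snurf, and how reads were assigned to it is not stated, so only its listing at 0 is given. Mkrn3 of this domain ranged from 0.17 to 0.59. Rasgrf1 was listed at 0 in all C18-4 libraries, and Gatm, Nap1l5 and Nnat did not exceed 0.20 RPKM in either line. Mest, a paternally expressed hydrolase gene of mesoderm, was 0.12, 0.20 and 0.13 RPKM in C18-4 shNC and 0.48, 0.42 and 0.23 in shM5 libraries. The groups did not overlap, and as with Usp29 the values lay under the filter and were not tested. How many of all genes under the filter parted the groups was not computed. Nothing is therefore read from the lack of overlap of Usp29, Tspan32 and Mest.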

How the data were processed

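Libraries of C18-4 and TM4 cells with shNC or shM5, 3 in each of 4 groups, were analysed, grouped by the sample labels. The authors enriched mRNA with oligo(dT), primed cDNA with random hexamers, mapped reads to reference genes with SOAPaligner and deposited RPKM with 2 decimals. The genome build and annotation are not given in the sources used here. RPKM keeps no read totals, so counting error is unknown. The relative value of 1 read, taken from steps of 43 to 87 low genes in each library, was 0.977 to 1.02. log2(RPKM + 0.1) was fitted with limma 3.58.1 in R 4.3.3 for genes that averaged 0.5 RPKM or more across the fitted libraries, with eBayes, a mean-variance trend and Benjamini-Hochberg adjustment, within each line and over all 12 libraries for the line contrast and the interaction. The fits were tested on simulated data with independent noise in each library and, for TM4 cells, the spread of each gene capped at the median spread. The simulation held no outlying library such as TM4 shNC replicate 3, so it does not cover that case.

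The members and lists (other imprinted genes, imprint regulators, Peg3 partners, cell type markers and ATF4 targets with Atf4 itself) were chosen with earlier results of these data known. Values in every library are given for members averaging 5 RPKM or more in a line or called in a comparison. Those for Usp29, Zim1, Mest, Tspan32 and flanking or overlapping genes were added after their values were seen. In C18-4 cells same-numbered libraries deviated together (correlations across genes of 0.439, 0.409 and 0.631), so the replicate block is given where it changes a call. Replicates 1 and 2 also correlated across numbers (0.341 and 0.345), so mainly replicate 3 was set apart. In TM4 cells they did not (0.0729, 0.0489 and 0.127). Alternatives were a pseudocount of 1, no level filter, quantile normalisation, the block, array weights, the study's threshold (0.001 and 1 log2 unit) and leaving out libraries. Positions and upstream sequences came from RefSeq on GRCm38.p6 and serve only to place genes.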

Additional observations from a re-analysis of the deposited data

Results flagged for a closer look

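Peg3 is listed here for its interaction between the lines in the fit of all 12 libraries, 1.144 on the log2 scale, with Peg3 at 13.73 to 17.09 RPKM in C18-4 shNC, 31.71 to 36.22 in C18-4 shM5 and 0 in all 6 TM4 libraries. No TM4 response could be measured, so the value is only the C18-4 difference for which Peg3 was chosen. It is a description, and nothing is read from the call.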

How the results depend on the processing

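Counts of imprinted genes in C18-4 cells and for the interaction include Peg3, from which nothing is read. In C18-4 cells, 68 genes and 1 imprinted gene were called. Without a level filter 4 genes were called, with the replicate block, that is with the libraries paired by number, 1386 genes and 3 imprinted genes, and without the third replicates, an alternative chosen after seeing the data, 3029 and 6. At the study's threshold 0 and 0 were called. Leaving out 1 library at a time gave 0 to 237 genes and 0 to 2 imprinted genes, the most without shNC replicate 3. In TM4 cells 0 genes and 0 imprinted genes were called. With array weights, which gave shNC replicate 3 a weight of 0.044, 8452 genes and 8 imprinted genes were called, without the third replicates 8016 and 8, and leaving out 1 library 0 to 7433 and 0 to 7, where only the omission of shNC replicate 3 gave any. Between the lines the counts stayed within 1.5 times under every alternative run. Impact was no longer called with the shM5 libraries in place of shNC, and Sgce, Trappc9 and Igf2r crossed the limit of 1 log2 unit in some. For the interaction 12 genes and 1 imprinted gene were called, against 27 genes with a pseudocount of 1, 57 with quantile normalisation, 21 genes and 0 imprinted genes without a filter, 1 and 0 with the replicate block, 7022 and 9 without the third replicates, 0 and 0 at the study's threshold, and 0 to 4477 and 0 to 4 leaving out 1 library. Of 852 values of single imprinted genes under the alternatives, 34 had the opposite sign to the value reported, and 0 of these reported values were past the threshold. In C18-4 cells they were 19 values of Sgce, Trappc9, Igf2r, Ddc, Grb10, Gnas and Igf2, where Ddc went from 0.106 to -0.367 without shNC replicate 3. Between the lines Mcts2 and Inpp5f were -0.154 and -0.184 without the third replicates (limma adjusted p = 0.00787 and 0.0143), under the limit of 1 log2 unit. The causes were not tested. In TM4 cells and between the lines the numbers did not pair the libraries (correlations of 0.0489 to 0.127 and -0.306 to -0.194), and the block added or removed no call of an imprinted gene other than Peg3 there. Low genes are limited by values rounded to 2 decimals.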

Other observations

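Other imprinted genes, from a list of 35 of which 28 had values were compared in the same way. Between the lines, 7 of 20 tested in shNC libraries passed the threshold, beside 29% of all genes, with 2 higher in C18-4 cells (18.7% of all genes) and 5 higher in TM4 cells (10.4%). Htr2a, a serotonin receptor gene, was listed at 0 in all C18-4 libraries and at 8.9 to 11.5 RPKM in TM4 cells, and the lipid flippase gene Atp10a at 0 and at 14.7 to 17.6. Dcn, which encodes decorin of the extracellular matrix, was 91.4 to 184 RPKM in C18-4 and 797 to 820 in TM4 shNC libraries. In C18-4 cells 1 of 17 was called (0.586% of all genes), Cd81, a tetraspanin gene of the Kcnq1 domain region, which rose from 116, 118 and 137 to 210, 212 and 203 RPKM (0.76 on the log2 scale, limma adjusted p = 0.0367). This call was lost without shNC replicate 1 or 2 or shM5 replicate 1 or 2, fits in which 0 genes were called. With the replicate block Osbpl5 of the same region was also called (0.39, limma adjusted p = 0.0134), 2 of 17 beside 11.9% of all genes. In TM4 cells 0 of 18 were called, and 9 of 18 without shNC replicate 3, when 67.4% of all genes were. Cd81 was among these 9. It was 103.36, 103.81 and 148.27 RPKM in TM4 shNC and 168.13, 168.06 and 155.5 in shM5 libraries, without overlap. The difference was 0.488 with all libraries (limma adjusted p = 0.192) and 0.661 without shNC replicate 3 (limma adjusted p = 1.34e-05).

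Of 23 imprint regulators with values, 20 were tested and 0 called in C18-4 cells. With the replicate block Dnmt3a (-0.32, limma adjusted p = 0.0336) and Ehmt2 (-0.23, limma adjusted p = 0.0329) fell, 2 of 20 beside 11.9% of all genes. Dnmt3a, Dnmt3b and Uhrf1 were higher in C18-4 than in TM4 shNC libraries, by 2.12, 1.83 and 1.23 log2 units. Between the shM5 libraries of the lines the differences were 1.72, 1.21 and 0.284, and that of Uhrf1 was not past the threshold (limma adjusted p = 0.392). Zfp57, the zinc finger protein that keeps imprints methylated, was 20.7 to 25.2 RPKM in C18-4 and 13.9 to 17.8 in TM4 shNC libraries. In TM4 cells 0 of 20 were called with all libraries and 12 without shNC replicate 3, when 67.4% of all genes were. Among them was Uhrf1, which guides DNMT1 to new DNA, at 19.8, 19.8 and 50.6 in shNC and 51.5, 53.3 and 51.9 in shM5 libraries, so that shNC replicate 3 lay with the shM5 libraries.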
